A study of Mus musculus with 11 samples.

Results

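Cdx2 and 6 other transcription factors that specify intestinal epithelium (Cdx1, Hnf4a, Hnf4g, Klf5, Foxa2 and Gata6) were examined in the colon of mice without the receptor TNFR1. These 7 genes, of 35683 in the deposited table, were taken by symbol; they were chosen by their role in gut identity and by the abundance of Cdx2, which was lower in Tnfr1-/- than in wild-type colons in these same libraries. The difference in Cdx2, and those of the other 6 factors between the same groups, are therefore given as descriptions without a test. The question was whether the lower Cdx2 was shared by the other factors, and how it compared with the epithelial genes Epcam and Cdh1. RNA came from the whole colon wall of 11 mice at 2 weeks of age, before weaning. The groups were 6 mice with both copies of the receptor gene (Tnfrsf1a) disrupted, written Tnfr1-/-, and 5 wild-type mice. No treatment, sex, litter or strain is given in the labels. The unit throughout is normalized abundance, a length-scaled transcript abundance (TPM) divided by a size factor of the library.

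Cdx1 and Cdx2 are caudal-type homeodomain proteins that set and maintain intestinal against gastric identity in the epithelium. Hnf4a and Hnf4g are nuclear receptors that drive enterocyte genes together with the Cdx proteins. Foxa2 is a forkhead pioneer factor of endoderm, Gata6 a zinc-finger factor of endoderm and crypt cells, and Klf5 a Krüppel-like factor of proliferating crypt epithelium. Epcam is an adhesion molecule of epithelial cells, and Cdh1 encodes E-cadherin, their junctional cadherin. Neither is known as a marker of muscle, nerve or connective tissue. Both are genes of epithelium in general, and the squamous keratin gene Krt5, given below, was also found in every library. Levels relative to Epcam and Cdh1 may thus not be relative to intestinal epithelium alone.

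The libraries matched their labels at the deleted gene: Tnfrsf1a was between 19.0 and 28.0 in the 6 Tnfr1-/- libraries and between 61.7 and 73.1 in the 5 wild-type libraries. Estimated depth was 27.5 to 42.0 M reads per library. Wild-type replicates 1 and 2 stood apart in epithelial genes. The mean log2 level of 13 epithelial genes, set against the mean of all libraries, was 0.22 and 0.39 in these replicates, −0.15 to −0.12 in the other 3 wild-type libraries and −0.15 to 0.17 in the Tnfr1-/- libraries. Smooth muscle markers also spread most among wild types. The sum of 6 markers ran from 4491 to 11806 there, against 6472 to 8681 in Tnfr1-/- libraries. That spread did not follow the same pair. The mean log2 level of these markers was 0.03, −0.62, 0.02, 0.72 and −0.39 in wild-type replicates 1 to 5, highest in replicate 4. Many differences between the genotypes depended on wild-type replicates 1 and 2, and the main ones are given with and without this pair. Where no value without the pair is given, the difference may depend on it too. Neither a dissection day nor a batch is named in the labels.

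Cdx2 was lower in all 6 Tnfr1-/- libraries than in any of the 5 wild-type libraries. Its abundance was 82.3, 55.7, 92.4, 70.9, 78.1 and 78.0 in Tnfr1-/- replicates 1 to 6, and 117, 104, 129, 102 and 122 in wild-type replicates 1 to 5. The Tnfr1-/- value was lowest in replicate 2, and the highest, in replicate 3, was still under the lowest wild type. The means were 76.2 ± 12.3 (SD, n = 6) and 115 ± 11.5 (SD, n = 5), so Tnfr1-/- colons held 66.3% of the wild-type level. On the scale of log2(value + 0.5) the difference was −0.60 with a standard error of 0.12. In whole tissue, fewer cells that express Cdx2 and less Cdx2 RNA per cell cannot be told apart. Groups that did not overlap in this direction were seen for 0.769% of the 15079 genes tested and in the opposite direction for 0.723%, and nothing was read from these shares because the contrast chose Cdx2.

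Cdx2 (ENSMUSG00000029646, chr5:147300805-147307270, minus strand, GRCm38) has 1 transcript in the table, ENSMUST00000031650.3, with 3 exons and 2261 bases. No choice between transcript models thus enters its value. A library of typical depth held about 5416 reads of it, and the authors' deposited technical variance corresponds to an SD of 1.35%. That is well under the coefficient of variation between mice, 10.02% in wild types and 16.1% in Tnfr1-/-. The deposited variance is that of the estimated count alone. No mouse had repeat libraries, so variation from dissection or library preparation was not measured apart from that between mice. With each library left out in turn, the difference stayed between −0.66 and −0.51. It was −0.63 without wild-type replicates 1 and 2 together.

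**Figure D1:**
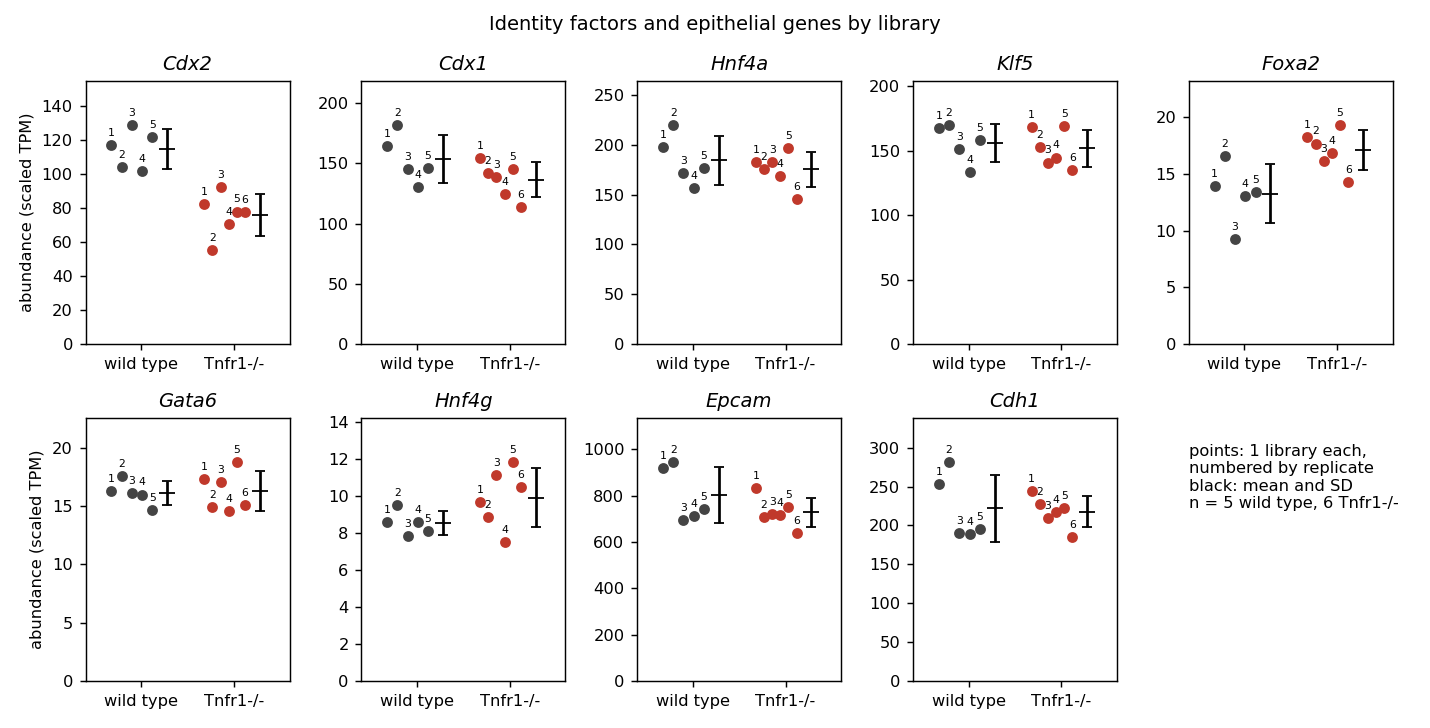
Normalized abundance of the 7 factors and of Epcam and Cdh1 in each library, with the mean and SD of each genotype beside the points (5 wild-type and 6 Tnfr1-/- libraries; vertical axes start at 0). The Tnfr1-/- points of Cdx2 (55.7 to 92.4) lie below all wild-type points (102 to 129), and the points of every other panel overlap.

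Its closest relative, Cdx1, overlapped between the genotypes. Cdx1 (ENSMUSG00000024619, on chromosome 18, 1 transcript) was 154, 142, 139, 124, 145 and 114 in Tnfr1-/- replicates 1 to 6 and 164, 182, 145, 130 and 146 in wild-type replicates 1 to 5. Tnfr1-/- replicates 4 and 6 were under the lowest wild type, and the other 4 were inside the wild-type range. The means were 136 ± 14.6 (SD, n = 6) and 154 ± 19.8 (SD, n = 5), a log2 difference of −0.17 with a standard error of 0.10. That difference was −0.05 without wild-type replicates 1 and 2. Cdx4, the remaining caudal-type gene, was listed at 0 in all 11 libraries.

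The nuclear receptor Hnf4a was at nearly the same level in both genotypes. Hnf4a (ENSMUSG00000017950, chr2:163506808-163572910, plus strand) was 182, 176, 182, 169, 197 and 145 in Tnfr1-/- replicates and 198, 220, 171, 157 and 177 in wild-type replicates. Only Tnfr1-/- replicate 6 was below the wild-type range. The means were 175 ± 17.4 (SD, n = 6) and 184 ± 24.6 (SD, n = 5), a log2 difference of −0.07 that became 0.06 without wild-type replicates 1 and 2.

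Hnf4g, its less abundant paralog (ENSMUSG00000017688, chr3:3508030-3658052, plus strand), was 9.66, 8.88, 11.1, 7.49, 11.9 and 10.5 in Tnfr1-/- replicates and 8.62, 9.49, 7.85, 8.60 and 8.11 in wild-type replicates. Replicates 1, 3, 5 and 6 of Tnfr1-/- were above the highest wild type and replicate 4 was below the lowest. The means were 9.91 ± 1.59 (SD, n = 6) and 8.54 ± 0.627 (SD, n = 5), a log2 difference of 0.19 with a standard error of 0.11. Its sign was therefore opposite to that of Cdx2.

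Foxa2 was the factor with the largest difference after Cdx2, and in the other direction. Foxa2 (ENSMUSG00000037025, chr2:148042877-148046969, minus strand) was 18.2, 17.7, 16.1, 16.8, 19.3 and 14.3 in Tnfr1-/- replicates and 13.9, 16.6, 9.29, 13.1 and 13.4 in wild-type replicates. The groups overlapped through wild-type replicate 2, which was above Tnfr1-/- replicates 3 and 6. The means were 17.1 ± 1.75 (SD, n = 6) and 13.2 ± 2.61 (SD, n = 5), a log2 difference of 0.37 with a standard error of 0.13. It ranged from 0.25 to 0.45 with each library left out in turn and was 0.51 without wild-type replicates 1 and 2.

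Klf5 and Gata6 had similar means in the genotypes. Klf5 (ENSMUSG00000005148, chr14:99298691-99315036, plus strand) ran from 135 through a median of 149 to 169 in Tnfr1-/- libraries and from 133 through 158 to 170 in wild types, so that no Tnfr1-/- library was outside the wild-type range. Its means were 152 ± 14.2 (SD, n = 6) and 156 ± 14.8 (SD, n = 5), a log2 difference of −0.04, which was 0.04 without wild-type replicates 1 and 2. Gata6 (ENSMUSG00000005836, on chromosome 18) ran from 14.5 through 16.1 to 18.8 in Tnfr1-/- and from 14.7 through 16.1 to 17.6 in wild types. Its log2 difference was 0.01 with a standard error of 0.07, and its sign changed when single libraries were left out (−0.03 to 0.04). Among the 7 factors, 4 were thus lower and 3 higher in Tnfr1-/- by their means, with a median of −0.04, and 52.1% of all genes tested were lower. Without wild-type replicates 1 and 2 the count was 2 lower and 5 higher, with a median of 0.06.

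Ordered by abundance per length over all 11 libraries, Hnf4a came first, followed by Klf5, Cdx1 and Cdx2, and then by Gata6, Foxa2 and Hnf4g. Hnf4a exceeded Klf5 in 11 of 11 libraries, but by a ratio of means of only 1.17 and with overlapping ranges. Klf5 exceeded Cdx1 in 10 of 11 libraries, with a ratio of 1.07. Cdx1 was above Cdx2 in 11 of 11 libraries, with a ratio of 1.34 in wild types and 1.79 in Tnfr1-/-. A wide gap followed, as mean Cdx2 was 5.78 times mean Gata6, and their ranges did not overlap. Gata6 and Foxa2 did not differ beyond their spread, and their order was not the same in the genotypes: Gata6 was above Foxa2 in 5 of 5 wild-type and in 2 of 6 Tnfr1-/- libraries. Foxa2 was above Hnf4g in all 11.

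The epithelial reference genes overlapped between the genotypes. Epcam was 834, 710, 720, 717, 750 and 638 in Tnfr1-/- replicates 1 to 6 and 922, 948, 695, 711 and 742 in wild-type replicates 1 to 5. Wild-type replicates 1 and 2 were the highest of all libraries, and the other 3 lay within the Tnfr1-/- range. The means were 728 ± 63.6 (SD, n = 6) and 804 ± 121 (SD, n = 5), a log2 difference of −0.13 with a standard error of 0.10 and an adjusted p of 0.70 in limma. Cdh1 averaged 218 ± 19.7 (SD, n = 6) against 222 ± 43.2 (SD, n = 5), a log2 difference of −0.01 with an adjusted p of 0.98 in limma. Without wild-type replicates 1 and 2 these differences were 0.02 for Epcam and 0.18 for Cdh1.

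Set against Epcam in the same library, Cdx2 stayed lower on average in Tnfr1-/-, but the groups then touched. Cdx2 amounted to 9.88%, 7.84%, 12.8%, 9.88%, 10.4% and 12.2% of Epcam in Tnfr1-/- replicates 1 to 6, and to 12.7%, 11.0%, 18.6%, 14.4% and 16.4% in wild-type replicates 1 to 5. The 2 low wild-type ratios belonged to replicates 1 and 2, the libraries with the most Epcam. The means were 10.5% ± 1.80 (SD, n = 6) and 14.6% ± 2.97 (SD, n = 5). Relative to Cdh1 the means were 35.3% ± 7.05 and 53.5% ± 12.3.

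On the log2 scale, relative to the mean of Epcam and Cdh1, the Cdx2 difference was −0.53 with a standard error of 0.18, compared with −0.60 for the plain abundance. Of the 6 Tnfr1-/- libraries 4 were below the lowest wild type, and all 6 were below every wild type but replicate 2. Without wild-type replicates 1 and 2 the relative difference was −0.73. Against the panel of 13 epithelial genes it was −0.53 as well, and 3 of 6 were below the lowest wild type. Groups without overlap and lower in Tnfr1-/- made up 0.0663% of all genes relative to Epcam and Cdh1 and 0.0796% relative to the panel, and Cdx2 was in neither set.

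The other factors, relative to Epcam and Cdh1, lay on both sides of 0. Cdx1 differed by −0.09, Hnf4a by 0.00, Klf5 by 0.03, Gata6 by 0.09 and Hnf4g by 0.27. With wild-type replicates 1 and 2 left out, these differences were −0.15 for Cdx1, −0.04 for Hnf4a, −0.06 for Klf5, −0.04 for Gata6 and 0.15 for Hnf4g, so that the sign turned for Hnf4a, Klf5 and Gata6. Foxa2 differed by 0.44 with a standard error of 0.094, and on this scale every Tnfr1-/- library was above every wild-type library, as was the case for 0.318% of all genes relative to Epcam and Cdh1. Since the genotype contrast chose the genes, nothing was read from that share. Against the panel of 13 genes Foxa2 differed by 0.44 also, again without overlap, as did 0.272% of all genes. Without wild-type replicates 1 and 2, relative to Epcam and Cdh1, it differed by 0.41.

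**Figure D2:**
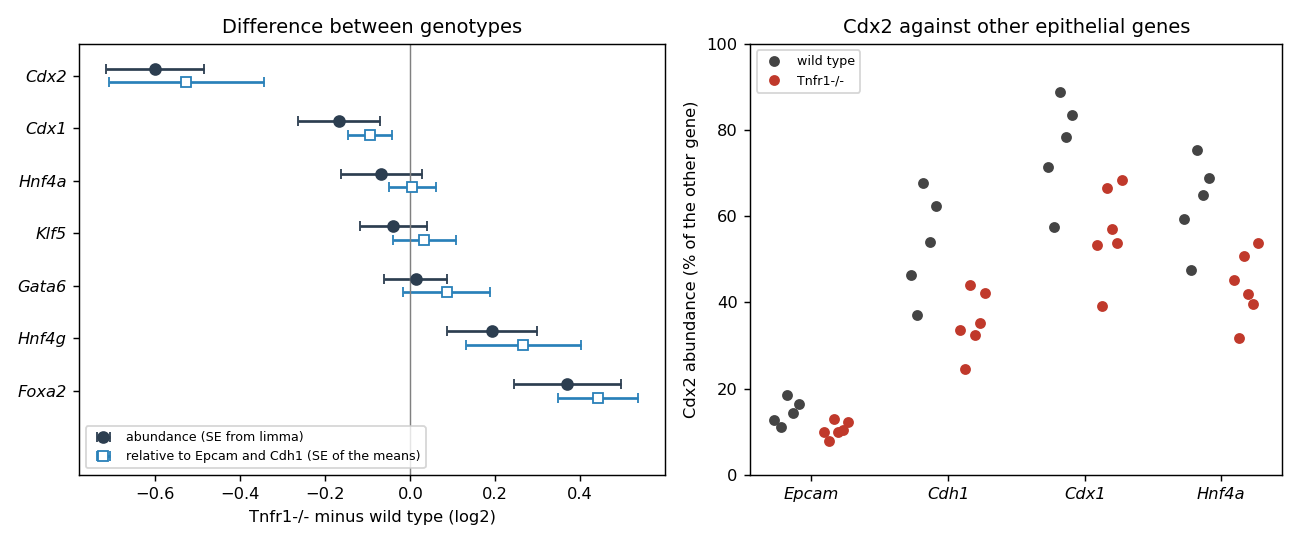
Left, the Tnfr1-/- minus wild-type difference of each factor on the log2 scale, as abundance and relative to the mean of Epcam and Cdh1, with standard errors; right, Cdx2 as a percentage of Epcam, Cdh1, Cdx1 and Hnf4a in each library. Cdx2 is at −0.60 and −0.53 and Foxa2 at 0.37 and 0.44, with the other 5 factors between them.

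Cdx2 was also lower against the other abundant factors. It amounted to 56.4% ± 10.6 of Cdx1 in Tnfr1-/- (SD, n = 6) and to 75.9% ± 12.1 in wild types (SD, n = 5). Its share of Hnf4a was 43.8% ± 7.94 against 63.3% ± 10.6, and its share of Klf5 was 50.7% ± 10.02 against 74.1% ± 8.98. For Cdx1 and Hnf4a 4 of 6, and for Klf5 5 of 6, Tnfr1-/- libraries were below the lowest wild type, so that the groups overlapped in each ratio.

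Variation among mice of the same genotype leaves out the difference of means that chose Cdx2. It is not fully independent of that choice, because groups separate more readily for a gene with little spread within genotype. Each library was expressed as its deviation from its genotype's mean on the log2 scale, and relations were tested by permuting libraries within genotype (two-sided, n = 11, 100000 resamples). Deviations share the library and its size factor, which can add to any correlation. In a first family of 8 relations, Cdx2 was compared with the other factors and with Epcam and Cdh1. A second family, of 7 relations, compared each factor with the mean of Epcam and Cdh1 and was added after the data had been seen.

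Cdx1 followed the epithelial genes closely from mouse to mouse, with Pearson's r = 0.89 (permutation p = 0.00031, adjusted p = 0.00217 over 7 relations) and Spearman's rho = 0.92 (permutation p = 0.00061). Hnf4a did so with r = 0.87 (permutation p = 0.00257, adjusted p = 0.00775) and rho = 0.94 (permutation p = 0.00176). For Klf5 r was 0.79 (permutation p = 0.00332, adjusted p = 0.00775) and rho 0.77 (permutation p = 0.00577). For Foxa2 r was 0.77 (permutation p = 0.00538, adjusted p = 0.00941) and rho 0.88 (permutation p = 8.0e-05). Deviations had the same sign as those of the epithelial genes in 10 of 11 libraries for Cdx1, Hnf4a and Klf5 and in 9 of 11 for Foxa2. The libraries farthest from the median were wild-type replicates 1 and 2, and without them r was 0.86, 0.80, 0.76 and 0.67 for Cdx1, Hnf4a, Klf5 and Foxa2.

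Cdx2 showed no such relation at this number of mice, with r = −0.14 (permutation p = 0.644, adjusted p = 0.644) and rho = −0.24 (permutation p = 0.50); its deviation had the sign of the epithelial genes in 5 of 11 libraries. Without wild-type replicates 1 and 2, r was −0.04. Gata6 had r = 0.50 (permutation p = 0.0861, adjusted p = 0.121) and rho = 0.54 (permutation p = 0.0974), and r was 0.42 without those libraries. Hnf4g had r = 0.20 (permutation p = 0.481, adjusted p = 0.561) and rho = 0.22 (permutation p = 0.51), and r was 0.01 without them. Whether the correlation of Cdx2 differs from those of the other factors was not tested.

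The calls for Cdx1 and Klf5 held in each of 16 alternatives, with adjusted permutation p-values of at most 0.0486 and 0.0389. The call for Foxa2 was lost when any of 3 libraries was left out, with r between 0.65 and 0.79. Its permutation adjusted p was 0.202 without wild-type replicate 2 (r = 0.65), 0.0622 without wild-type replicate 1 (r = 0.79) and 0.0621 without Tnfr1-/- replicate 6 (r = 0.72). When wild-type replicates 1 and 2 were both removed before the genotype means were taken, r was 0.75 for Hnf4a (permutation adjusted p = 0.131) and 0.61 for Foxa2 (permutation adjusted p = 0.0614), so both calls were lost. In the 6 Tnfr1-/- libraries alone, r was 0.77 for Hnf4a (exact permutation adjusted p = 0.139) and 0.84 for Foxa2 (exact permutation adjusted p = 0.126).

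**Figure D3:**
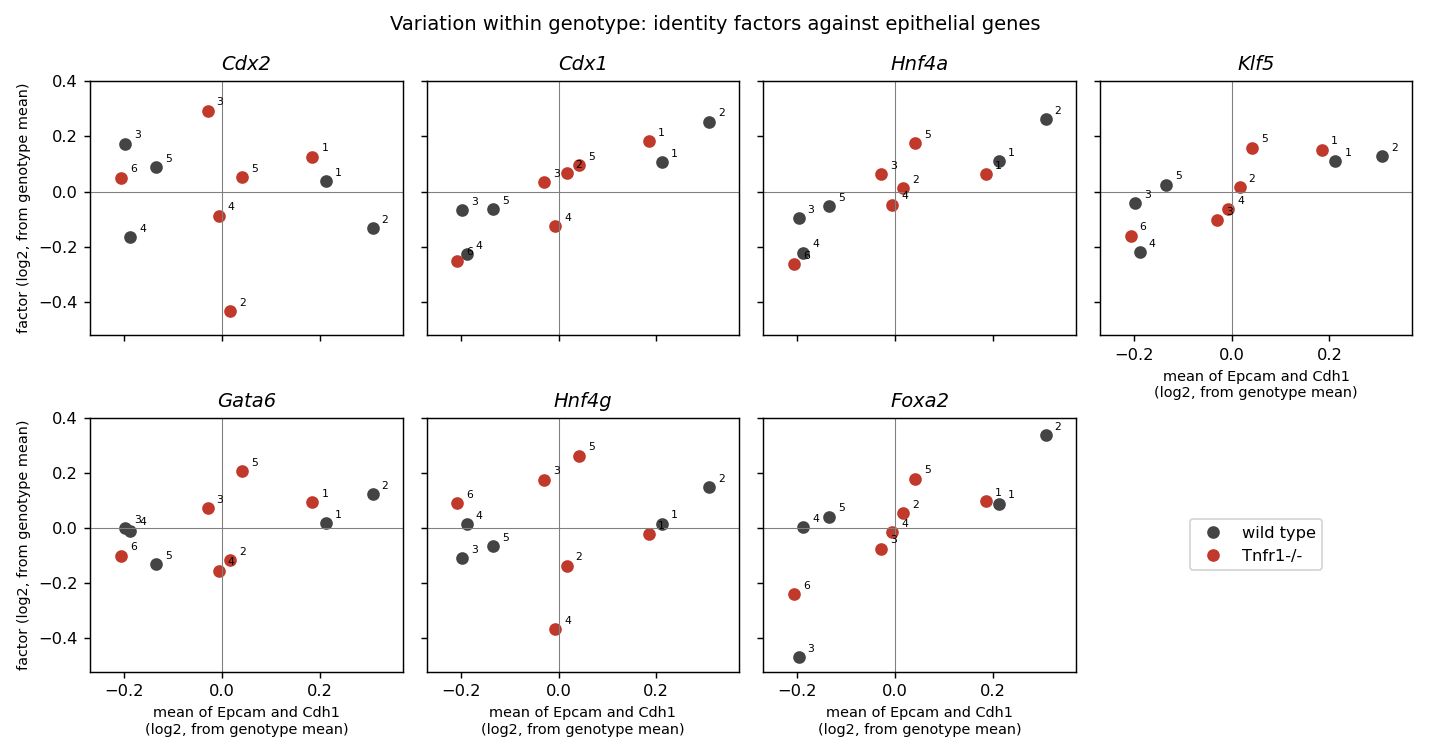
Deviation of each factor from its genotype mean (vertical, log2) against the mean deviation of Epcam and Cdh1 (horizontal, log2); each point is a library, numbered by replicate (5 wild-type, 6 Tnfr1-/-). Points of Cdx1 (r = 0.89) and Hnf4a (r = 0.87) lie along a rising line, and those of Cdx2 (r = −0.14) are scattered, with Tnfr1-/- replicate 2 lowest.

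Compared with the other factors directly, Cdx2 had r = −0.01 with Cdx1 (permutation p = 0.982, rho = 0.03), r = 0.02 with Hnf4a (permutation p = 0.957, rho = −0.01) and r = 0.02 with Klf5 (permutation p = 0.95, rho = 0.12). Its r was 0.33 with Hnf4g (permutation p = 0.445, rho = 0.24), 0.34 with Gata6 (permutation p = 0.423, rho = 0.29) and −0.37 with Foxa2 (permutation p = 0.209, rho = −0.33). For the epithelial genes r was −0.03 with Epcam (permutation p = 0.911, rho = −0.09) and −0.22 with Cdh1 (permutation p = 0.448, rho = −0.22). No relation of the 8 passed after adjustment, the smallest adjusted p being 0.897, and the smallest over rho 0.99. Without Tnfr1-/- replicates 2 and 3, the libraries farthest from the median of Cdx2, r ran from −0.49 (Foxa2) to 0.32 (Klf5). As a description, the pairs among the other factors included r = 0.94 for Cdx1 with Hnf4a, 0.88 for Cdx1 with Klf5 and 0.77 for Hnf4g with Gata6.

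Genes with a mean of at least 5 were ranked by likeness to Cdx2 or Hnf4a in deviations over the 11 libraries. Genes without a symbol, predicted genes (named Gm, Rik or AC) and pseudogenes (named -ps) were left out. Among these 10854 genes, most like Cdx2 in their deviations were Gramd3 (r = 0.92), Zc3h13 (0.90), Hsd3b2 (0.90), Hsd3b3 (0.89) and Ing4 (0.89). Hsd3b2 and Hsd3b3 are near-identical steroid dehydrogenase paralogs, so the split of reads between them is uncertain. Gramd3 shared the low value of Tnfr1-/- replicate 2, 34.0 against 47.7 to 62.3 in the other 5 Tnfr1-/- libraries. For Hnf4a the list was Ovol2 (0.97), Pklr (0.95), Cdpf1 (0.95), Higd2a (0.95) and Acad11 (0.94). Ovol2 encodes an epithelial zinc-finger factor and Pklr a pyruvate kinase. Cdx1 stood 8th and the claudin gene Cldn7 10th in the order for Hnf4a, whereas Cdx1 was 5472nd in the order for Cdx2. These are the highest of many correlations and carry no test.

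The windows in front of the start sites are shown because Cdx2 and Hnf4a are the factors on which the comparison turns, and Hnf4a has start sites far apart. They are the RefSeq windows (GRCm38.p6) of 250 bases before a start, printed 5′ to 3′ on the gene's strand. The Cdx2 and upstream Hnf4a windows are ended where the GENCODE M21 model begins. The downstream Hnf4a window is printed whole, since the models ENSMUST00000109411.7 and ENSMUST00000018094.12 begin after it, at 163547187 and 163547188. For Cdx2 this is chr5:147307271-147307499 (minus strand), for the upstream start of Hnf4a chr2:163506607-163506807 and for its downstream start chr2:163546905-163547154 (both plus strand). Capitals mark a match to the forkhead letters TGTTTAC or their reverse complement GTAAACA.
Cdx2: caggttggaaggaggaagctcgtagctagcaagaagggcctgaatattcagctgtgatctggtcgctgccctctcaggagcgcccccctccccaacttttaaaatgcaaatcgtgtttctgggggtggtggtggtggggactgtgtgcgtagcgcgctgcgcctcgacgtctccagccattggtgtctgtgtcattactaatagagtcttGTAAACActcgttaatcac
Hnf4a upstream: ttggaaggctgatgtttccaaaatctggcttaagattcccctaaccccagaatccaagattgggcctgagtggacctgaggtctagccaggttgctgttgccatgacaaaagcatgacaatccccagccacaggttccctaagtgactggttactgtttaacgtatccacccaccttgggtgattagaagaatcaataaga
Hnf4a downstream: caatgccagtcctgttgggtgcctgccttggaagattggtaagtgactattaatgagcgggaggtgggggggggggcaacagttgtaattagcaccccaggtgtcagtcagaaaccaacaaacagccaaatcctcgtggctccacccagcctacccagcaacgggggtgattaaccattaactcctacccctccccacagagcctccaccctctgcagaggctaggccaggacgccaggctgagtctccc

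Both strands of the whole 250-base windows were searched for 4 motifs with N for any base. The CDX letters TTTATNG were in none of the 3 windows, against 9.81% of 32851 promoter windows of that length. The HNF4 letters CAAAGTNCA were in none either, against 1.19%. The FOXA letters were in the Cdx2 window, at −40 to −34 from the RefSeq start, and in 3.17% of all windows. The GATA letters AGATAA were in the upstream Hnf4a window at −52 to −47, across the first base of the M21 model and so not shown whole, and in 9.99% of all windows. A match of letters is a description of sequence and not a binding site, and a missing match says only that the letters are not in that window.

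Most Hnf4a abundance was assigned to transcripts of the downstream start. The long models ENSMUST00000018094.12 and ENSMUST00000109411.7 together held 158 ± 15.4 in Tnfr1-/- (SD, n = 6) and 167 ± 21.9 in wild types (SD, n = 5). They share 4356 bases and differ by 6, with 8 of 10 exons identical. The split between them varied from 31.1% to 65.8% in the first across libraries, with a technical SD of 16.6% and 15.3% by the authors' deposited variance, so nothing was read from it.

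The model that begins at the upstream start, ENSMUST00000143911.7, lies 40379 bases away and has 431 bases in 3 exons, 1 of them its own. It held 17.8 ± 2.93 in Tnfr1-/- (SD, n = 6) and 17.3 ± 3.63 in wild types (SD, n = 5), or 10.1% ± 1.13 and 9.36% ± 1.16 of the gene. Neither start thus stood out between the genotypes beyond the spread of the mice. Because this model is annotated only for the first exons, reads from later exons do not tell the starts apart, and its share is not a measure of start use.

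**Figure D4:**
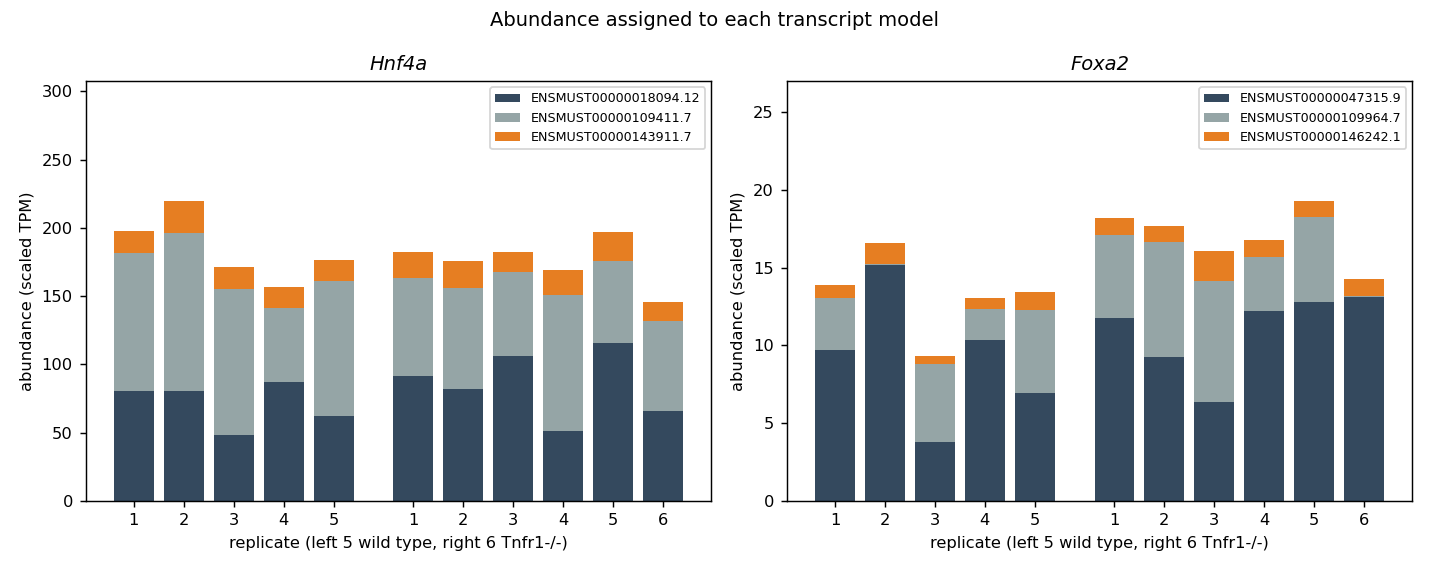
Abundance assigned to each transcript model of Hnf4a and Foxa2 in every library (stacked bars from 0; the models listed at or near 0 are left out). The total bar of Hnf4a varies less between libraries than the split of the long models does, and ENSMUST00000109964.7 of Foxa2 is nearly absent in wild-type replicate 2 and Tnfr1-/- replicate 6.

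For Foxa2, the models ENSMUST00000047315.9 and ENSMUST00000109964.7 begin at different first exons, but their split was poorly determined. The second was 0.04 in wild-type replicate 2 and 0.06 in Tnfr1-/- replicate 6, and 2.00 to 7.77 in the other libraries. Its technical SD was 134% and that of the first 26.8%, so the higher Foxa2 in Tnfr1-/- could be read only for the gene as a whole. The first model held 64.5% ± 17.8 of the gene in Tnfr1-/- (SD, n = 6) and 66.5% ± 20.5 in wild types (SD, n = 5).

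Hnf4g has a pair of coding models with separate starts. The one with the upstream start, ENSMUST00000108393.7, made up 33.2% ± 6.12 of the gene in Tnfr1-/- (SD, n = 6) and 28.6% ± 8.69 in wild types (SD, n = 5), and its technical SD was 16.2%. The minor Klf5 model ENSMUST00000226784.1 made up 0.479% ± 0.144 and 0.340% ± 0.0771 of that gene. The other 99.5% and 99.7% of Klf5 was in ENSMUST00000005279.7.

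Genes known to be bound or driven by Cdx2 were lower on average in Tnfr1-/-, none of them past the adjusted threshold, and for many of them the sign depended on wild-type replicates 1 and 2. Of 15 listed genes 14 were tested, and all 14 had a negative log2 difference, as did 52.1% of all genes tested. Their median was −0.25 against −0.01 over all genes tested, of which 0.00663% passed the adjusted threshold. By limma, 3 had an unadjusted p under 0.05, all lower. Of all genes tested 9.37% had such a p, and of all genes 5.17% were lower with such a p and 4.2% higher. Cldn2, a pore-forming claudin, was 66.8 ± 6.54 against 79.6 ± 6.64 (adjusted p = 0.398 in limma). Gucy2c, the guanylin receptor, was 61.2 ± 7.27 against 72.1 ± 5.89 (adjusted p = 0.436 in limma). Car1, a carbonic anhydrase of colonocytes, was 1017 ± 209 against 1418 ± 368 (adjusted p = 0.507 in limma).

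Without wild-type replicates 1 and 2, 7 of these 14 genes were lower and the median was −0.03. Of the 14, 3 then had an unadjusted p under 0.05 in limma and none was called. Of all 14923 genes tested without the pair, 52.5% were lower and 2455 had such a p. Cldn2 was then lower by a log2 difference of −0.29, Gucy2c by −0.17 and Car1 by −0.28. The intestinal fatty acid binding protein Fabp2 moved from −0.39 to 0.01, the mucin Muc2 from −0.28 to 0.07 and the chloride exchanger Slc26a3 from −0.47 to 0.06. The brush border disaccharidase Sis moved the other way, from −0.43 to −0.91, and the homeobox gene Isx from −0.37 to −0.68. The epithelial panel shifted with them: 10 of its 13 genes were lower with all libraries (median −0.08) and 1 of 13 without the pair (median 0.14). Without the pair, 4 of the 13 panel genes had an unadjusted p under 0.05 in limma and none was called. Summed over the panel, abundance ran from 5865 to 8143 in Tnfr1-/- and from 6156 to 9919 in wild types, and no panel gene was listed at 0. The part of epithelial content in the list's difference was not tested.

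**Figure D5:**
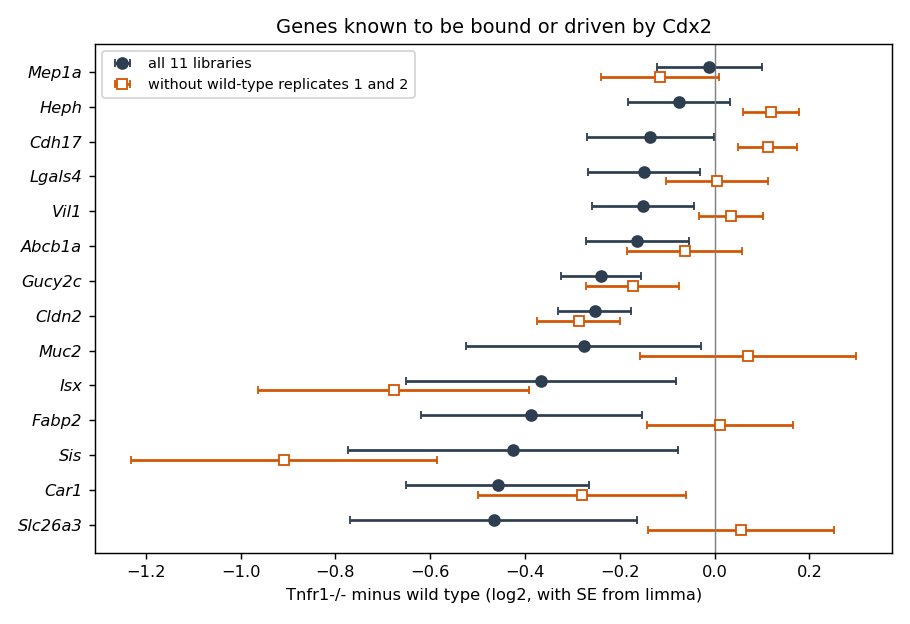
Log2 difference between Tnfr1-/- and wild type, with limma standard errors, for the 14 tested genes known to be bound or driven by Cdx2, with all 11 libraries and without wild-type replicates 1 and 2. With all libraries all 14 lie below 0 (median −0.25), and without the pair 7 do (median −0.03).

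Isx, chosen after its values were seen, was 20.5, 19.7, 38.1, 29.1, 38.1 and 35.5 in Tnfr1-/- replicates 1 to 6 and 34.9, 21.03, 61.0, 30.9 and 54.4 in wild-type replicates 1 to 5. Its deviations had r = 0.66 with those of Cdx2, the 311th highest of the same 10854 genes, and r = −0.36 with those of Hnf4a. Sis, also chosen after its values were seen, had r = 0.65 with Cdx2 and −0.25 with Hnf4a. The other genes of the list known to be bound or driven by Cdx2 were not compared with Cdx2 in this way. Nothing about the list as a whole was therefore read from Isx and Sis.

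Of 9 other members of the factor families 6 were tested, with 3 lower, 3 higher and none called, and a median of 0.01. Leaving out wild-type replicates 1 and 2 left 1 lower, with a median of 0.09. Foxa1, the paralog of Foxa2, was 33.8 ± 5.19 in Tnfr1-/- and 31.2 ± 4.19 in wild types (adjusted p = 0.817 in limma). Foxa3 was 15.6 ± 2.77 against 16.8 ± 1.13 (adjusted p = 0.791 in limma) and Klf4 172 ± 33.7 against 187 ± 35.9 (adjusted p = 0.845 in limma). Gata4 and Gata5 were under the filter on low values.

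Among 17 other epithelial transcription factors, 16 were tested and 11 were lower, with a median of −0.07, and none was called or had an unadjusted p under 0.05. Leaving out the wild-type pair left 9 of 16 lower, with a median of −0.04 and 3 at an unadjusted p under 0.05. Of all 14923 genes tested without that pair, 2455 had such a p in limma. Those with the smallest p were Esrra, a nuclear receptor of oxidative metabolism (72.4 ± 3.74 against 79.1 ± 8.20, adjusted p = 0.618 in limma), and the stem cell factor Ascl2 (5.41 ± 0.477 against 6.63 ± 1.75, adjusted p = 0.633). They were followed by Creb3l3 (6.65 ± 0.892 against 8.15 ± 1.89, adjusted p = 0.638 in limma) and the secretory lineage factor Atoh1 (19.7 ± 3.74 against 22.4 ± 1.77, adjusted p = 0.646). Of genes known to be driven by Hnf4 factors, mostly of lipid transport, 9 of 10 were tested, 5 were lower and none was called, with a median of −0.02. Leaving out the wild-type pair gave 6 of 9 lower, a median of −0.30 and 2 at an unadjusted p under 0.05. Apoa4 had the lowest difference, −0.74 with a standard error of 0.52, and Abcg5 the highest, 0.42 with a standard error of 0.22. Both had low values. Apoa4 ran from 0.264 to 2.08 in Tnfr1-/- and from 0.568 to 8.31 in wild types, highest in replicate 3. Abcg5 ran from 2.90 to 4.96 in Tnfr1-/- and from 1.62 to 4.89 in wild types.

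Listed stomach and foregut genes, some of which Cdx2 is known to hold down in the intestine, were mostly under the filter on low values. Of 14 listed genes only 4 were tested, and Gkn1, Gkn2 and Cldn18 were listed at 0 in all 11 libraries. The 4 tested were higher on average in Tnfr1-/-, with and without wild-type replicates 1 and 2, none called. Of these, Krt5 and Trp63 are genes of squamous epithelium, and the amount of such epithelium in each sample was not tested. Whether the differences relate to Cdx2 was not tested either. With all libraries 7224 of all 15079 genes tested were higher. The protease Ctse was 52.3, 42.6, 40.8, 54.9, 39.0 and 51.8 in Tnfr1-/- replicates and 40.7, 46.3, 29.1, 35.6 and 25.1 in wild types, with means of 46.9 ± 6.85 and 35.4 ± 8.53 (adjusted p = 0.455 in limma). Krt5, a keratin of squamous epithelium, averaged 181 ± 117 against 91.7 ± 21.7 (adjusted p = 0.793 in limma), and ran from 19.2 in Tnfr1-/- replicate 5 to 365 in replicate 4. Trp63, a squamous basal-cell factor, was likewise lowest in replicate 5, at 1.08, and highest in replicate 4, at 13.8. In Tnfr1-/- replicate 5 both Krt5 and Trp63 were below every wild type, whose lowest values were 73.8 and 2.86. Sox2 was between 0.891 and 1.49 in all libraries except Tnfr1-/- replicate 2, at 2.75.

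Of 11 posterior Hox genes, which mark position along the gut, all 11 were tested, 7 were higher and 4 lower, and none was called; the median was 0.04. Leaving out wild-type replicates 1 and 2 gave 5 lower, a median of 0.17 and 2 at an unadjusted p under 0.05. Of all 14923 genes tested without that pair, 2455 had such a p in limma. Hoxb13, expressed at the distal end of the gut, was 77.0 ± 23.3 in Tnfr1-/- and 63.8 ± 17.9 in wild types (adjusted p = 0.756 in limma). The genes with a smaller p lay on both sides of 0. Their log2 differences were −0.17 for Hoxb9, 0.25 for Hoxa9 and −0.29 for Hoxd9, against 0.25 for Hoxb13. Markers of the other cell types of the wall had medians of 0.08 for 6 smooth muscle genes, 0.12 for 7 fibroblast genes, −0.18 for 5 leukocyte genes, −0.02 for 4 endothelial genes and −0.09 for 5 genes of enteric neurons and glia. These medians also depended on wild-type replicates 1 and 2. With that pair left out they were −0.06 for smooth muscle (5 of 6 genes lower), −0.17 for fibroblasts (7 of 7), −0.07 for leukocytes (4 of 4 tested), −0.17 for endothelium (4 of 4) and −0.28 for neurons and glia (5 of 5, of which 3 had an unadjusted p under 0.05 in limma). None of these genes was called with or without the pair, and no gene of these lists was listed at 0 throughout. Of 4 exocrine pancreas genes only Cela1 passed the filter, with a difference of 0.03, or 0.40 without the pair. Their part in the Cdx2 difference was not tested.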

How the data were processed

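RNA from 11 colons was read from a single end for 75 bases after stranded mRNA library preparation, per the labels' protocols. Tools in the submitters' processing notes are CASAVA, kallisto and sleuth, with the build mm10 and no versions. The authors' deposited values are a normalized signal, TPM over a size factor per library, in the form sleuth writes. A deposited column holds each transcript's mean natural log (ln) of estimated counts, made by the authors. With transcript length it gave the depth of each library, as the factor at which 54.3% to 57.0% of low values lay within 0.02 of a whole read, against 2.24% to 2.62% at a typical factor. Depths are thus estimates, and no count test was run. The authors' deposited technical variance per transcript was the other column used.

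Of 113991 lines, 584 transcripts had repeats with identical values, of which 1 line was kept. The 97 transcripts without a gene (0.031% of abundance) were left out. Values were summed per Ensembl gene and tested where at least 1 in at least 5 libraries, on log2(value + 0.5), with limma 3.58.1 in R 4.3.3 (empirical Bayes with trend, two-sided, Benjamini-Hochberg adjusted p under 0.05 over 15079 genes). This scale understates differences of low genes. Named genes are the 7 factors, Epcam, Cdh1, up to 4 genes per list with the smallest p, and the 5 most like Cdx2 or Hnf4a; others are said to be chosen by their values or bear directly on a count, and some list genes that the rule takes are given only by their list's count. The factors, lists and tests were chosen with earlier results of these data known. Positions are from GENCODE M21 and promoters from RefSeq. Python 3.11.15, pandas 2.3.3, numpy 2.4.6, scipy 1.17.1 and matplotlib 3.10.9 were used.

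Alternatives were other normalizations, filters, pseudocounts of 1 and 0.1, sample quality weights, a replicate block, another epithelial reference, leaving out each library, and, added after the data were seen, leaving out wild-type replicates 1 and 2 together.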

Additional observations from a re-analysis of the deposited data

Results flagged for a closer look

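The abundance of the 7 factors, Epcam and Cdh1, and the levels of the 7 factors relative to Epcam and Cdh1, gave 32 groups of 5 or 6 libraries, which were checked for a library far from the others (Dixon's criterion). In 0 of the 32 did the highest or lowest library pass, where chance gives about 1 in 20, or 1.6 groups.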

How the results depend on the processing

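The count of genes called between the genotypes was 1 with all libraries and 1 to 2 with each library left out in turn (2 without wild-type replicate 1). It was 3 with sample quality weights. Of the listed genes 0 were called under any of 20 alternatives, with 4 to 19 at an unadjusted p under 0.05. Over all genes tested, 922 to 2455 had such a p in limma. Both counts were highest without wild-type replicates 1 and 2. Same-numbered mice had correlations of −0.22 to 0.38. Of Tnfr1-/- replicates 1 to 5, only replicate 3 was most like the wild type of its own number. These few correlations cannot settle whether the numbers pair the samples, and the main fit assumed no pairing. With the replicate block 1 gene was called, 1542 genes had an unadjusted p under 0.05 in limma and the Cdx2 difference was −0.61. The Cdx2 difference was negative under all 20 alternatives (−0.66 to −0.51) and that of Foxa2 positive (0.25 to 0.51). Hnf4g was not tested under the filter at a mean of 10. The correlation of Cdx2 with Hnf4a was −0.18 and with Klf5 −0.25 after columns were rescaled to equal sums. In Tnfr1-/- libraries alone that of Cdx2 was 0.035 with Cdx1, −0.074 with Klf5 and 0.20 with Epcam, and without wild-type replicates 1 and 2 it was 0.17 with Cdx1 and 0.17 with Epcam. With each library left out it ran from −0.19 to 0.16 for Cdx1, −0.15 to 0.20 for Hnf4a, −0.20 to 0.20 for Klf5 and −0.16 to 0.12 for Epcam. The correlation with Epcam and Cdh1 was 0.67 for Gata6 under quantile normalization (permutation adjusted p = 0.0286). In Tnfr1-/- libraries alone it was 0.00091 for Cdx2, 0.77 for Hnf4a, −0.11 for Hnf4g and 0.84 for Foxa2, and without wild-type replicates 1 and 2 it was 0.011 for Cdx2, 0.75 for Hnf4a, −0.11 for Hnf4g and 0.61 for Foxa2. With each library left out it ran from −0.28 to 0.012 for Cdx2 and from 0.65 to 0.83 for Foxa2. The causes were not tested. The deposited technical SD of the Cdx2 count estimate was far under the spread of mice. Variation from dissection or library preparation was not measured apart from that spread.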
